A study of Mus musculus with 8 samples.

Results

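The genes described here are the ribosome biogenesis and nucleolar factors of the mouse embryo, 65 of the 18257 genes in the deposited count matrix. They were chosen by gene symbol alone: every Utp, Nop, Rrp and Nol gene whose symbol continues with a digit, Imp3 and Imp4, the Gnl2 and Gnl3 symbols, 10 DEAD-box helicases, and a short list of named genes that includes Pes1, Bop1, Fbl, Dkc1, Npm1 and Ncl. All 65 passed the filter on low counts and were among the 12936 genes tested. RNA was measured by polyadenylated RNA sequencing in wild-type mouse embryos that were harvested as morulae, the compacted ball of cells that comes before the blastocyst. The control embryos grew in KSOM medium with 0.1% DMSO, and the treated embryos in KSOM with 2 µM A485, in both cases from the 4-cell stage onward. The series asks what p300 and CBP inhibition does to the cleaving embryo. A485 is a small molecule that blocks the acetyltransferase activity of p300 and CBP, a pair of related enzymes that acetylate histones and other proteins. Each group has 4 libraries, and each library was made from a pool of 3 embryos freed of the zona pellucida. The labels name each library as a morula although the culture they describe runs on to the blastocyst, and the labels do not state how much DMSO the A485 medium held. Nothing in the labels ties a pool to its own litter or day, so p-values measure the spread between these pools. Gene positions below are on the GRCm38.p6 build.

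Ribosomes are assembled in the nucleolus. RNA polymerase I copies the ribosomal DNA repeats into a long precursor, which the small subunit (SSU) processome binds and cleaves to release the 40S precursor, while a separate set of factors folds and trims the 60S precursor. Small nucleolar ribonucleoproteins (snoRNPs) add the methyl groups and pseudouridines of ribosomal RNA, and the early mouse embryo builds up its nucleoli and its own ribosomes during these cleavage divisions.

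Total estimated counts were 23641781 to 25677701 per library. The A485 libraries varied more among themselves than the control libraries did: the chi-square per degree of freedom between libraries of a group was 18.8 to 33.1 for controls and 57.8 to 199 for A485. On the second principal component, which held 8.90% of the variance, A485 replicates 1 and 2 scored 57.0 and 36.7 and replicates 3 and 4 scored -37.2 and -39.2. Morula and lineage markers were present in every library, and 7 of 8 were lower with A485. Their summed level was 1437 to 1948 CPM (counts scaled to library size) in controls and 357 to 628 CPM in A485. Cdx2, a trophectoderm factor, fell with a log2 fold change of -4.71 ± 0.51 and Tfcp2l1, a pluripotency factor, with -3.29 ± 0.25, whereas E-cadherin (Cdh1) had 0.30 ± 0.20 and did not pass the test. Of 8 cumulus and granulosa cell markers 1 passed the filter (Amhr2), and their summed level was 24.1 to 40.7 CPM in controls and 22.9 to 46.7 CPM in A485, with 4 to 7 of the 8 at 0 in control libraries and 1 to 5 in A485 libraries. The part of stage or cell composition in the results below was not tested, and in bulk RNA fewer cells of a type and less RNA per cell cannot be told apart. No spike-in was described, so every level is relative to the rest of the library.

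The set was lower as a group in A485 morulae. By edgeR's quasi-likelihood test with a Benjamini-Hochberg adjusted p under 0.05, 49 of the 65 genes fell and 16 did not pass, against 25.0% of all tested genes that were lower and 29.7% that were higher. None of the 65 rose by this test, by DESeq2 or by limma-voom, and 1 (Utp11) was higher at an unadjusted p under 0.05. The median log2 fold change of the 65 was -0.91, and that of all tested genes was 0.085. The 65 and all tested genes are not matched for level. Their median control levels were 57.1 and 3.07 TPM (a level scaled for gene length). Of the 65 genes, 62 had a negative fold change and 28 fell at least 2-fold, against a background of 14.3%. In CPM, every A485 library lay below every control library for 51 genes, against 24.6% of all tested genes, and for none did every A485 library lie above. In TPM the groups of some of these genes overlapped, among them Ncl, Nolc1, Rrp1, Utp6, Utp15, Ddx10 and Ddx54. In the authors' deposited table, 52 of the 65 were lower and 0 higher at a q-value under 0.05, against 19.6% of the genes with a q-value there. All 49 genes called by edgeR were among those 52, and Ddx10, Ddx54 and Utp6 were the others.

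Library scaling moves these counts. The main scaling (TMM) was replaced by the plain total count, which shifted the median of all tested genes from 0.085 to 0.37 on the log2 scale. Under it 42 of the 65 fell, Utp11 rose and the median of the set was -0.64, against 17.8% of all tested genes lower and 38.1% higher. The count of genes that fell was 53 without A485 replicates 1 and 2, and 47 without replicates 3 and 4. The median of the set was -1.12 and -0.75 in these 2 settings, and that of all tested genes 0.081 and 0.049. The share of all tested genes that were lower in these settings is not given here. Of the 49 genes called lower, 41 kept the call in every alternative that was run.

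**Figure D1:**
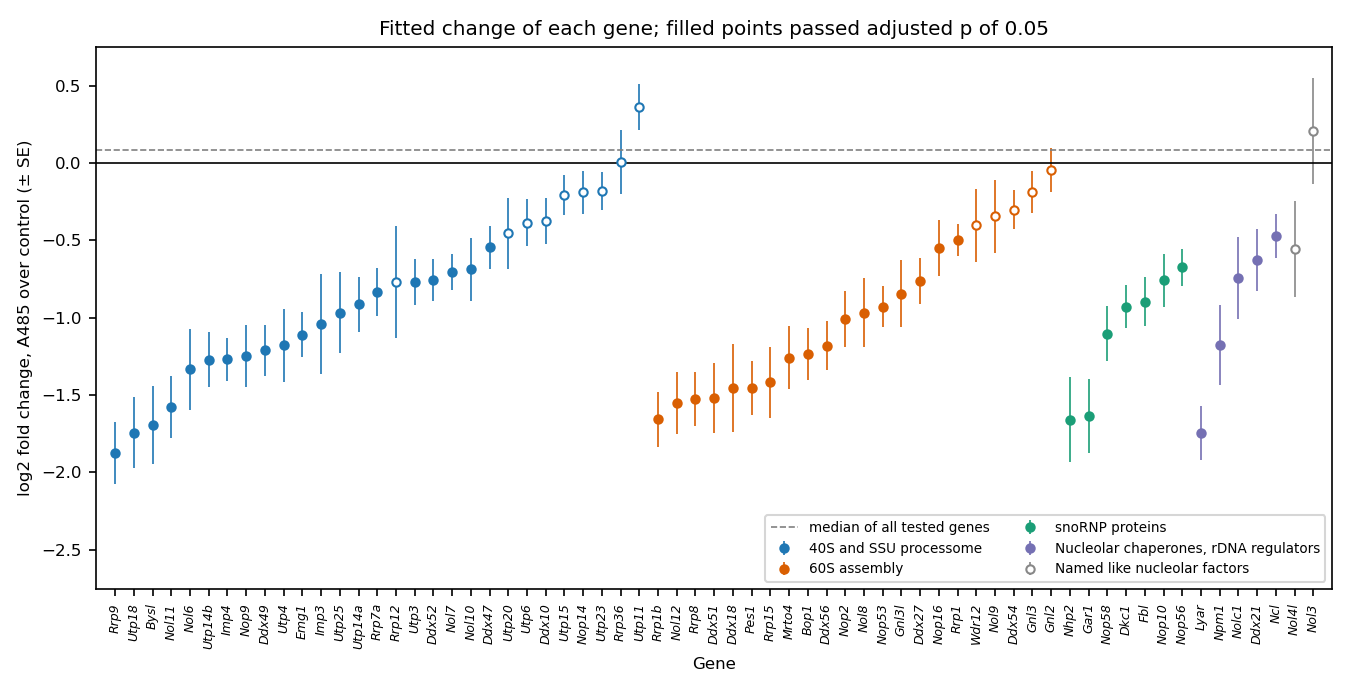
Log2 fold change of each of the 65 genes, A485 over control, with its standard error, grouped by role; filled points passed the adjusted p of 0.05 and open points did not. All filled points lie below 0, and the dashed line marks the median of all tested genes, 0.085.

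The shift of the set was present in each A485 library, but its size differed between them. Together the 65 genes took 1.46, 1.53, 1.56 and 1.44% of the estimated counts in control replicates 1 to 4 and 1.14, 0.958, 0.751 and 0.832% in A485 replicates 1 to 4. The median log2 ratio of the 65 to their control mean was -0.60, -0.85, -1.23 and -0.90 in the A485 libraries, and the same ratio over all tested genes was 0.038 to 0.043. A485 replicate 1 had the highest A485 value for 53 of the 65 genes and replicate 3 the lowest for 46. Npm1 alone supplied 30.0 to 32.7% of the set's CPM in controls and 21.9 to 31.4% in A485. Without Npm1 the summed level was 11397 ± 344 CPM (SD, n = 4) in controls and 6186 ± 1264 CPM in A485, and the drop remained.

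**Figure D2:**
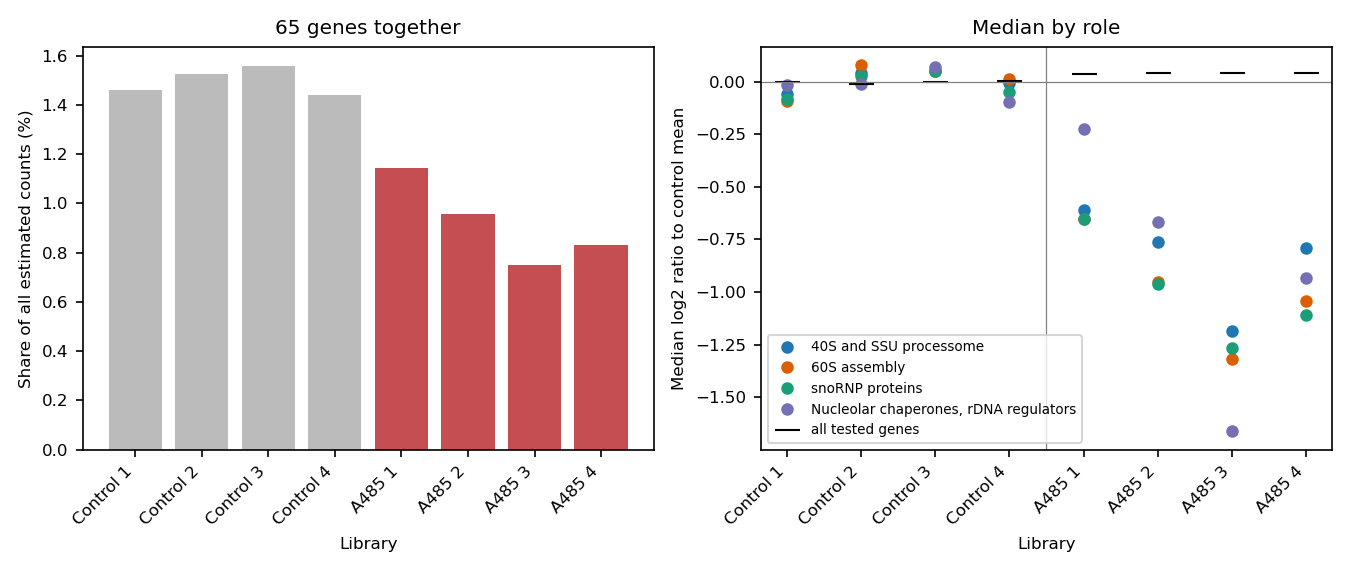
Left, share of all estimated counts (%) taken by the 65 genes in each of the 8 libraries; right, median log2 ratio to the control mean for 4 roles (coloured points) and for all tested genes (black dashes). Every A485 bar is below every control bar, from 0.751 to 1.14% against 1.44 to 1.56%, and A485 replicate 1 is the nearest to the controls.

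The 40S and SSU processome factors numbered 29, of which 20 fell and 9 did not pass, with a median log2 fold change of -0.83. This group contains the U3 snoRNP, the UTP subcomplexes and the helicases that remodel the precursor. Rrp9 (chr9:106477309-106485415), the U3-specific WD-repeat protein that grips the U3 snoRNA, had the most negative fold change of the 65 genes. Its levels were 132, 163, 166 and 157 CPM in control replicates 1 to 4 and 54.3, 49.5, 32.4 and 31.9 CPM in A485 replicates 1 to 4, with no overlap. The log2 fold change was -1.87 ± 0.20 (standard error), with an adjusted p of 5.6e-05 by edgeR's quasi-likelihood test.

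Imp3 and Imp4 bind U3 snoRNA and help it pair with the precursor. Imp4 (chr1:34439829-34445747) was measured at 406, 406, 383 and 358 CPM in controls and 189, 173, 129 and 154 CPM in A485. Every A485 library lay below the controls, and the log2 fold change was -1.27 ± 0.14 (adjusted p 6.68e-05, edgeR). Imp3 (chr9:56937500-56938398) was at 133, 108, 106 and 119 CPM in controls and 94.3, 64.9, 27.6 and 39.7 CPM in A485, with a log2 fold change of -1.04 ± 0.32 (adjusted p 0.0196, edgeR). Its groups also did not overlap, but A485 replicate 1 stood close to the controls and replicate 3 far below. Its fold change was -1.81 without A485 replicates 1 and 2 and -0.55 without replicates 3 and 4, and its adjusted p was 0.0534 without A485 replicate 4.

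Nol11 (chr11:107166651-107189381), a UTP-A subunit that supports both transcription of ribosomal DNA and early processing, was at 182, 179.6, 210.1 and 181 CPM in controls and 80.0, 77.5, 43.6 and 51.2 CPM in A485. The log2 fold change was -1.58 ± 0.20 (adjusted p 0.000151, edgeR), and the A485 libraries split into replicates 1 and 2, which were higher, and replicates 3 and 4. Utp18, a WD-repeat protein of the UTP-B complex, fell with a log2 fold change of -1.74 ± 0.23, and Utp4 of UTP-A with -1.18 ± 0.24. Bysl, which is needed for maturation of the 40S precursor, fell with -1.69 ± 0.25. The methyltransferase Emg1 (-1.11 ± 0.15), the RNA-binding factors Nol6 (-1.33 ± 0.26) and Nop9 (-1.25 ± 0.20), and the 2 Utp14 genes, Utp14a (-0.91 ± 0.18) and Utp14b (-1.27 ± 0.18), also fell. Utp14b is a retrotransposed copy of Utp14a, so how reads were split between them is uncertain. The other falls of the group, helicases aside, were those of Utp25 (-0.97 ± 0.26), Rrp7a (-0.83 ± 0.15), Utp3 (-0.77 ± 0.15), Nol7 (-0.70 ± 0.12) and Nol10 (-0.69 ± 0.20), and Nol10 missed the threshold under total-count scaling (-0.42, adjusted p 0.0904).

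Promoter sequences are shown because many of the 65 genes fell together, and the CACGTG E-box that MYC and MAX bind was searched for in them. RefSeq promoters, from 250 bases before to 50 after the gene start, were matched for 53 of the 65 genes. The 150 bases before the start are shown for 4 genes with an E-box that fell, 5′ to 3′ on the gene's strand, with CACGTG and the ETS-type core CCGGAAG in capitals. The positions are chr1:34439679-34439828 on the plus strand for Imp4, chr11:107189382-107189531 on the minus strand for Nol11, chr11:93885767-93885916 on the minus strand for Utp18 and chr6:125131733-125131882 on the plus strand for Nop2, which encodes a 60S methyltransferase.
Imp4: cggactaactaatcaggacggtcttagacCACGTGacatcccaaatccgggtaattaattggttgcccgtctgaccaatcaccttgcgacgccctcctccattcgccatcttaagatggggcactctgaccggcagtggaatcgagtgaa
Nol11: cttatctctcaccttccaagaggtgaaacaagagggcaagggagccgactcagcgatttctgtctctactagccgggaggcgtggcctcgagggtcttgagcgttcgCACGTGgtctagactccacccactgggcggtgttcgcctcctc
Utp18: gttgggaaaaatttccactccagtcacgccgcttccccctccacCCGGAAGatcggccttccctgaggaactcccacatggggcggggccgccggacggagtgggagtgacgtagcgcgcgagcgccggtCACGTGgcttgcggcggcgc
Nop2: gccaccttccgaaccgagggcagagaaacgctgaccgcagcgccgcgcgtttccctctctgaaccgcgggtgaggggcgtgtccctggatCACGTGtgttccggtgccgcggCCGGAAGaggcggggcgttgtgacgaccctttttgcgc
Counted from the gene start, with -1 the last base printed, the E-box lies at -121 to -116 in Imp4, -43 to -38 in Nol11, -20 to -15 in Utp18 and -60 to -55 in Nop2, and Utp18 and Nop2 also hold the ETS-type core.

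On both strands, CACGTG was found in 10 of the 53 promoters (18.9%) and in those of 11.6% of the 10413 tested genes with a promoter sequence. The 10 genes with it had a median log2 fold change of -1.22, and 9 fell while Utp20 did not pass. Of the 43 without it 34 fell, with a median of -0.77. Among all tested genes, whether or not they had a promoter sequence, 25.0% fell. The share that fell among all tested genes with CACGTG or CCGGAAG is not given here. The part of either motif in the falls was not tested. CCGGAAG was found in 18 of the 53 (34.0%) against 19.9%, and 15 of those 18 genes fell. The order of the medians was the other way for this motif, at -0.89 with it and -0.97 without it, and for the E-box variant CACGCG, at -0.87 with it and -1.01 without it. CACGCG was found in 18 of the 53 (34.0%) against 19.2%, CTCGCGAG in 1 (Nol9) against 2.2%, and GCGCATGC in none against 5.98%. CACGTG reads the same on both strands, each motif was counted on its own whether or not it overlapped another, and a match describes letters and not a bound site.

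The 60S assembly factors numbered 22, of which 17 fell and 5 did not pass, with a median log2 fold change of -0.99. Rrp1b (chr17:32036162-32062865), a nucleolar protein that associates with 60S precursors, was at 46.6, 57.2, 59.1 and 52.9 CPM in controls and 21.4, 18.5, 14.2 and 14.3 CPM in A485. Its log2 fold change was -1.66 ± 0.18 (adjusted p 5.58e-05, edgeR), and all A485 libraries were below the lowest control. Its paralogue Rrp1 fell less in this fit, with -0.50 ± 0.10, and missed the threshold under total-count scaling (-0.21, adjusted p 0.0942). Rrp8 (chr7:105731730-105737385), the methyltransferase that modifies an adenosine of the large ribosomal RNA, was at 61.3, 76.2, 64.9 and 67.3 CPM in controls and 27.95, 21.5, 17.4 and 26.6 CPM in A485. That gave a log2 fold change of -1.53 ± 0.17 (adjusted p 8.11e-05, edgeR) with well separated groups.

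Pes1, Bop1 and Wdr12 form the PeBoW complex, which is required for processing of the 60S precursor. Pes1 (chr11:3963975-3980004) was at 122, 128, 130.3 and 131 CPM in controls and 60.7, 42.1, 34.1 and 49.96 CPM in A485, a log2 fold change of -1.45 ± 0.17 (adjusted p 0.000108, edgeR). Bop1 (chr15:76452988-76477249) was at 122, 112, 127 and 122 CPM in controls and 69.98, 46.9, 44.7 and 44.2 CPM in A485, a log2 fold change of -1.23 ± 0.17 (adjusted p 0.000211, edgeR). For both genes the A485 libraries lay below all controls, and A485 replicate 1 was the highest of them. Wdr12 (chr1:60071361-60098500) was at 788, 1120.1, 810.3 and 807 CPM in controls and 881, 845, 452 and 487 CPM in A485. Its groups overlapped, since A485 replicates 1 and 2 were within the control range and replicates 3 and 4 below it, and it did not pass (log2 fold change -0.40 ± 0.24, adjusted p 0.176, edgeR). Without A485 replicates 1 and 2 the value was -0.93 with an adjusted p of 0.00114. Across all alternatives it ran from -0.93 to -0.03. Wdr12 was the most abundant of the 3 per unit length, at 102 ± 16.8 TPM (a level scaled for gene length) in controls against 49.8 ± 4.17 for Bop1 and 44.0 ± 2.70 for Pes1.

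The set holds 3 nucleolar GTPases. Gnl3l (chrX:150983133-151017322), which acts in 60S processing, was at 58.8, 74.4, 68.6 and 57.4 CPM in controls and 51.3, 38.9, 27.97 and 26.3 CPM in A485, with no overlap and a log2 fold change of -0.84 ± 0.22 (adjusted p 0.00767, edgeR). Without A485 replicates 1 and 2 that change was -1.27, and without replicates 3 and 4 it was -0.52. Gnl3 (chr14:31012433-31019131), known as nucleostemin, was at 262, 252, 238 and 205 CPM in controls and 225, 196, 179 and 241 CPM in A485. Its groups overlapped, and it did not pass (log2 fold change -0.19 ± 0.14, adjusted p 0.271, edgeR). Gnl2, the other GTPase, had -0.04 ± 0.14 (adjusted p 0.816, edgeR) and turned positive under some scalings.

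Among the remaining 60S factors, Nol12, an RNA-binding factor, fell with -1.55 ± 0.20 on the log2 scale, and Rrp15 with -1.42 ± 0.23. Mrto4, which holds the place of the P0 stalk protein on the precursor, fell from 469 ± 20.2 to 239 ± 53.4 TPM (log2 fold change of the counts -1.26 ± 0.20). Nop2, the methyltransferase named above, fell with -1.01 ± 0.18, Nop53 with -0.93 ± 0.13 and Nol8 with -0.97 ± 0.22. Nop16 fell with -0.55 ± 0.18 although its groups overlapped, and its adjusted p was 0.052 to 0.0674 when control replicate 1, 3 or 4 or A485 replicate 2 or 3 was left out, and 0.065 without A485 replicates 3 and 4.

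The 10 DEAD-box helicases, enzymes that unwind RNA during assembly, span both subunits. Of these, 8 fell, with a median log2 fold change of -0.76 over the 10. Ddx51 had the most negative value (-1.52 ± 0.23), followed by Ddx18 (-1.45 ± 0.28), Ddx49 (-1.21 ± 0.17) and Ddx56 (-1.18 ± 0.16). Ddx52 (-0.76 ± 0.14), Ddx27 (-0.76 ± 0.15) and Ddx47 (-0.54 ± 0.14) also fell, the last of them not past the threshold under total-count scaling (-0.26, adjusted p 0.0821), and Ddx21 is described with the ribosomal DNA regulators. Ddx10 (-0.38 ± 0.15, adjusted p 0.0517, edgeR) and Ddx54 (-0.30 ± 0.13, adjusted p 0.0686) did not pass. In TMM-scaled CPM every A485 library lay below every control library for both, but in TPM the groups of both overlapped. Mean TPM in control and A485 was 5.18 and 4.94 for Ddx10, and 10.6 and 10.8 for Ddx54. Across the alternatives the value nearest to 0 was -0.096 for Ddx10 and -0.013 for Ddx54. Ddx10 passed by DESeq2 (adjusted p 0.0175), by limma-voom (0.0462), with RLE factors (0.0424) and, by edgeR, without A485 replicate 1 (adjusted p 0.037). Ddx54 passed by DESeq2 (adjusted p 0.0246) and, by edgeR, without A485 replicate 4 (adjusted p 0.032) and without replicates 3 and 4 (-0.41, adjusted p 0.0303).

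**Figure D3:**
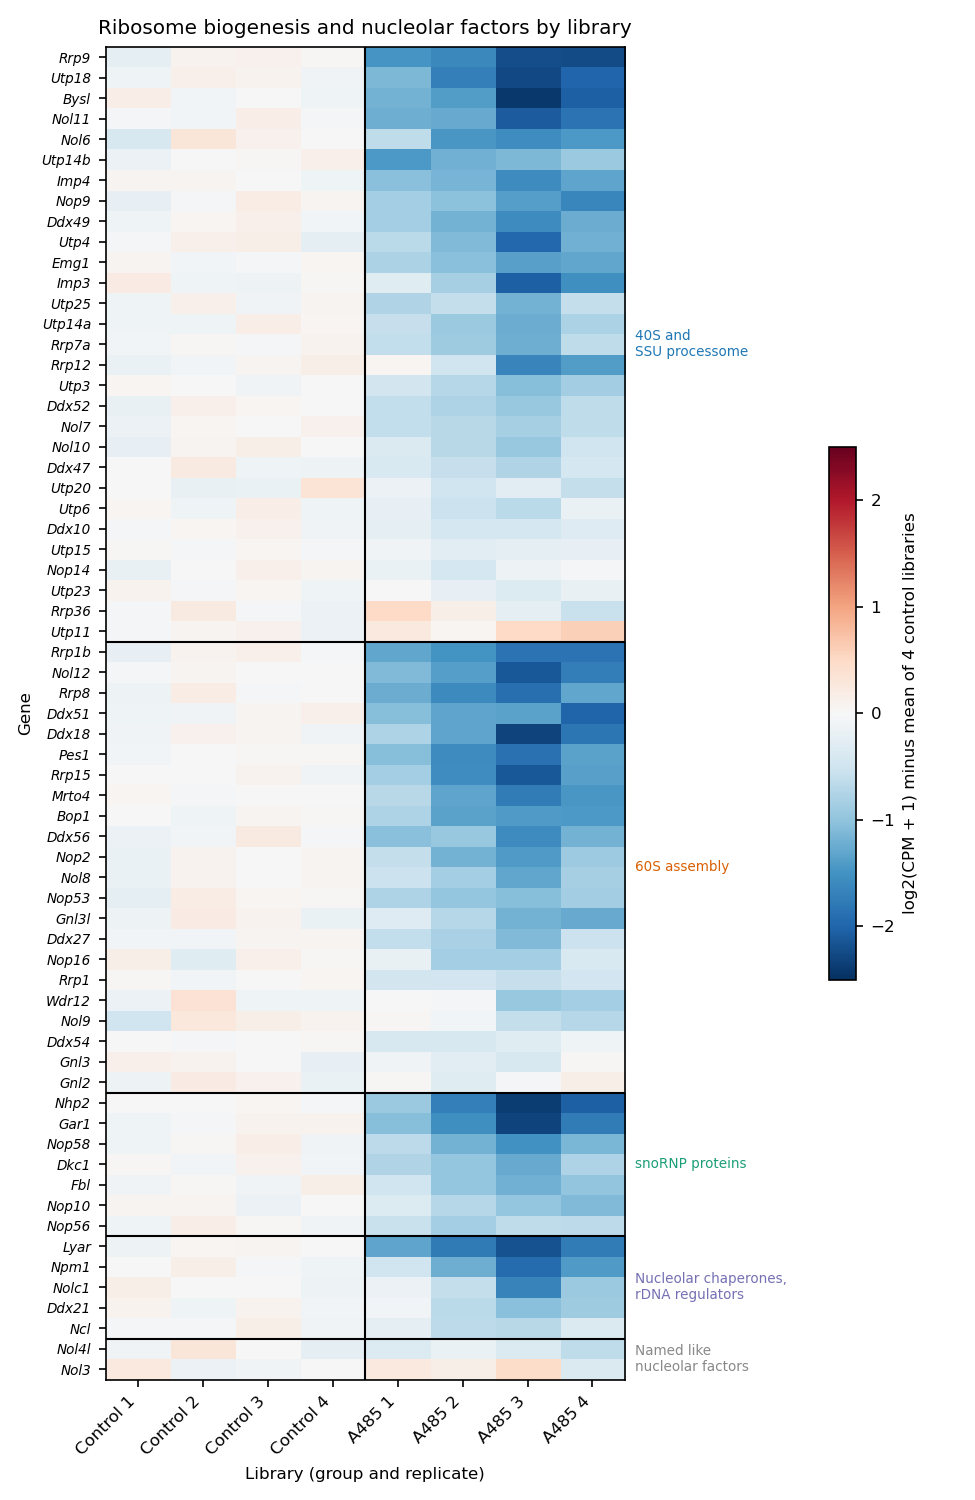
Log2 ratio of each of the 65 genes to its control mean (colour) in the 8 libraries (columns), with genes grouped by role. Most genes are lower in all 4 A485 columns, and the A485 replicate 3 column is the lowest for 46 of the 65.

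All 7 core snoRNP proteins in the set fell, with a median log2 fold change of -0.93 and no overlap between the groups for any of them. Box H/ACA particles, which guide pseudouridylation, contain Dkc1, Nhp2, Nop10 and Gar1. Nhp2 (chr11:51619773-51623718) was at 1209, 1204, 1251 and 1165 CPM in controls and 638, 370.5, 231 and 292 CPM in A485, a log2 fold change of -1.66 ± 0.27 (adjusted p 0.00068, edgeR). The A485 libraries ran from 638 CPM in replicate 1 to 231 CPM in replicate 3. Gar1 (chr3:129824912-129831407) was at 71.7, 74.6, 82.7 and 82.1 CPM in controls and 36.4, 26.3, 14.9 and 22.5 CPM in A485, a log2 fold change of -1.64 ± 0.24 (adjusted p 0.00031, edgeR).

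Dkc1 (chrX:75095854-75109776), the pseudouridine synthase dyskerin, was at 205, 192, 216 and 192 CPM in controls and 119, 103, 83.0 and 118 CPM in A485, a log2 fold change of -0.93 ± 0.14 (adjusted p 0.000367, edgeR). Its A485 libraries were close to each other, unlike those of Nhp2. Nop10 (chr2:112261926-112262898), the smallest protein of the particle, was at 289, 288, 249 and 279 CPM in controls and 217, 169, 139.7 and 127 CPM in A485, a log2 fold change of -0.76 ± 0.17 (adjusted p 0.00359, edgeR). Per unit length Nhp2 was the most abundant of the 4, at 1389 ± 90.4 TPM in controls and 532 ± 191 TPM in A485, and Gar1 the least abundant in both groups, at 67.6 ± 6.88 and 26.4 ± 7.12 TPM.

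Of the proteins of box C/D particles, which guide ribose methylation, the set holds Fbl, Nop56 and Nop58. Fibrillarin, Fbl (chr7:28168893-28179269), the methyltransferase, was at 323, 349, 321 and 378 CPM in controls and 241, 175, 148 and 173 CPM in A485, a log2 fold change of -0.90 ± 0.16 (adjusted p 0.000923, edgeR). Nop58 (chr1:59684961-59711510) was at 176, 194, 212 and 178 CPM in controls and 120.3, 83.5, 65.6 and 84.8 CPM in A485, a log2 fold change of -1.10 ± 0.18 (adjusted p 0.000571, edgeR). Nop56 (chr2:130274367-130279313), its scaffold partner, was at 419.6, 505, 462 and 427 CPM in controls and 308, 249.8, 293 and 285 CPM in A485, a log2 fold change of -0.67 ± 0.12 (adjusted p 0.00105, edgeR). In all 3 the highest A485 library was below the lowest control library, and in each of them A485 replicate 1 was the highest of its group.

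The 5 nucleolar chaperones and ribosomal DNA regulators all fell, with a median log2 fold change of -0.74. Lyar (chr5:38220471-38234306), a nucleolar zinc-finger protein that promotes ribosomal DNA transcription, was at 185, 208, 212 and 204 CPM in controls and 79.8, 58.7, 43.6 and 59.3 CPM in A485. Its log2 fold change was -1.74 ± 0.18 (adjusted p 4.5e-05, edgeR), and the groups were far apart.

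Nucleophosmin, Npm1 (chr11:33152498-33164142), the abundant chaperone of the outer nucleolus, was at 5061, 5696, 5007 and 4766 CPM in controls and 3605, 2193, 1357 and 1928 CPM in A485, a log2 fold change of -1.18 ± 0.26 (adjusted p 0.00334, edgeR). It was the most abundant of the 65 in both groups, at 4056 ± 289 TPM in controls and 2198 ± 691 TPM in A485. Reads of its processed pseudogenes make its level uncertain. Nucleolin, Ncl (chr1:86344719-86359455), which binds the nascent precursor, was at 888, 879, 1003 and 843 CPM in controls and 771, 575, 557 and 705 CPM in A485, a log2 fold change of -0.47 ± 0.14 (adjusted p 0.0168, edgeR). In CPM its highest A485 library lay below the lowest control, whereas in TPM the groups overlapped. Under total-count scaling its change was -0.20 with an adjusted p of 0.151. Nolc1, a snoRNP chaperone (-0.74 ± 0.26, adjusted p 0.0363), and the helicase Ddx21 (-0.63 ± 0.20, adjusted p 0.0224) passed the test by edgeR, and the groups of Ddx21 overlapped. Both lost the call without single libraries. The adjusted p of Nolc1 was 0.0527 to 0.0844 when any 1 control or A485 replicate 2 or 4 was left out. That of Ddx21 was 0.0507 to 0.0569 when control replicate 1, 2 or 3 or A485 replicate 2 or 4 was left out. Without A485 replicates 1 and 2 the log2 fold changes were -1.28 for Nolc1 and -0.995 for Ddx21, and without replicates 3 and 4 they were -0.36 and -0.35.

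Of the 16 genes that did not pass, 9 were 40S factors, 5 were 60S factors and 2 had no settled role in ribosome assembly. In the 40S group Rrp12 had a log2 fold change of -0.77 ± 0.36 (adjusted p 0.0971, edgeR), and it passed by limma-voom (-0.98, adjusted p 0.0348). By edgeR it passed without A485 replicate 1 (-1.20, adjusted p 0.00627) and without replicates 1 and 2 (-1.69, adjusted p 0.000129). Utp6 (-0.39 ± 0.15) passed on all 8 libraries by DESeq2 (adjusted p 0.0329), by limma-voom (0.0436), with RLE factors (0.0428) and with no filter (0.0438). By edgeR it also passed when A485 replicate 1 (adjusted p 0.0287) or 4 (0.0319) was left out. Utp15 (-0.21 ± 0.13), Utp20 (-0.45 ± 0.23), Utp23 (-0.18 ± 0.12) and Nop14 (-0.19 ± 0.14) did not pass in any alternative. Rrp36 was near 0 (0.01 ± 0.21), and Utp11 had the most positive value of the 65 (0.36 ± 0.15, adjusted p 0.0599, edgeR). Without A485 replicate 2 Utp11 passed as higher (0.46, adjusted p 0.026), and likewise without replicates 1 and 2 (0.53, adjusted p 0.00596). Nol9, a kinase of 60S processing, had -0.34 ± 0.24, and it passed without A485 replicates 1 and 2 (-0.74, adjusted p 0.0218). The values nearest to 0 across the alternatives were -0.22 for Rrp12, -0.11 for Utp6, 0.15 for Utp11 and -0.04 for Nol9. Nol3 (0.21 ± 0.34), an inhibitor of cell death, and Nol4l (-0.55 ± 0.31) share the gene name prefix without a settled role in ribosome assembly. These were at 0.938 and 0.41 TPM in controls, the level of genes with few reads, and did not pass.

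Fixed pairs of genes were then compared per unit length, as the difference of log2(TPM + 1) within a library. Most of the 9 pairs joined genes of the same complex. Gnl3 and Gnl3l are related GTPases, and Ncl and Npm1 are separate nucleolar proteins. Each pair was tested by exact permutation (two-sided) of the 70 ways to split 8 libraries into 4 and 4. The smallest p this design allows is 0.0286, and no pair passed after Benjamini-Hochberg adjustment over the 9. A pair at that smallest p could pass only if most of the 9 reached it. The lack of a pass therefore does not show that a ratio was kept. The log2 ratio of Dkc1 to Nhp2 was -4.25 ± 0.04 (SD, n = 4) in controls and -3.42 ± 0.49 in A485, higher in all 4 A485 libraries (exact permutation p 0.0286, adjusted 0.103). The ratio of Ncl to Npm1 was -4.69 ± 0.14 in controls and -3.93 ± 0.42 in A485, also higher in all 4 (exact permutation p 0.0286, adjusted 0.103). For Wdr12 to Bop1 the difference between groups was 0.76, for Gnl3 to Gnl3l it was 0.64 and for Nop56 to Nop58 it was 0.45, each with an exact permutation p of 0.0571 and an adjusted p of 0.103. Gar1 to Nhp2 (difference 0.09), Imp3 to Imp4 (0.10), Pes1 to Bop1 (-0.21) and Fbl to Nop58 (0.21) differed by less or with overlap between the groups.

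**Figure D4:**
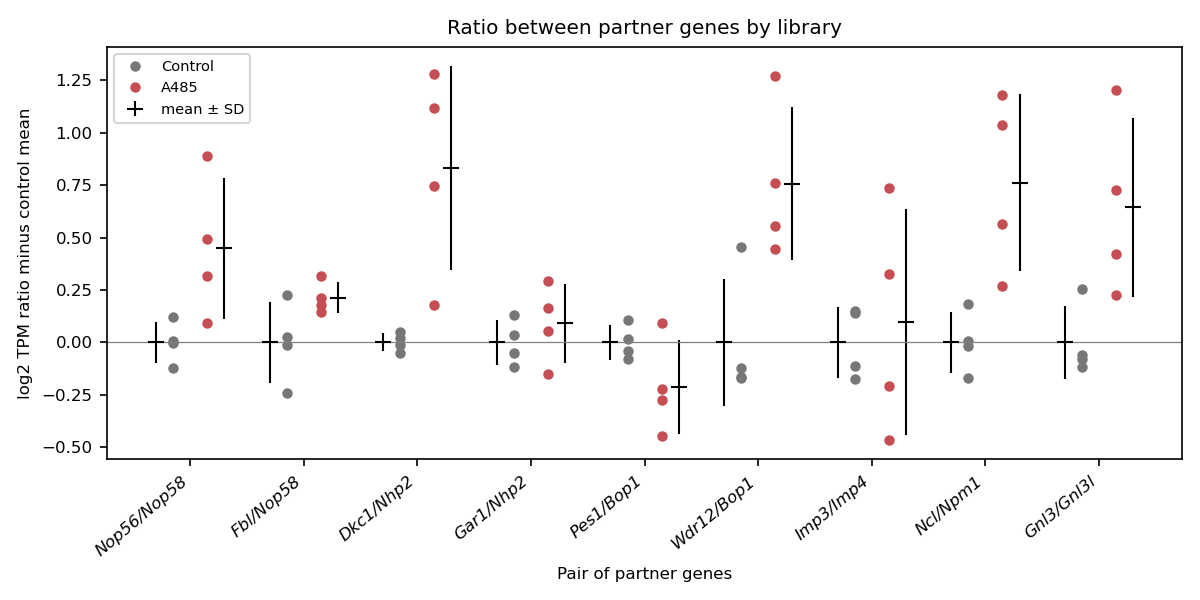
Log2 TPM ratio of 2 partner genes minus its control mean, for the 9 pairs, with 1 point a library and the mean ± SD of each group of 4. The Dkc1 to Nhp2 and Ncl to Npm1 values are higher in all 4 A485 libraries, and the other 7 pairs overlap between the groups.

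The other genes of ribosome production were taken from lists that do not include the 65. For comparison with each list, 25.0% of all tested genes were lower and 29.7% higher, with a median log2 fold change of 0.085. Of 15 RNA polymerase I subunits and factors 11 fell and 4 did not pass, with a median log2 fold change of -1.24. Polr1b, the second-largest subunit, fell from 50.2 ± 4.31 to 7.73 ± 4.56 CPM (SD, n = 4), a log2 fold change of -2.70 ± 0.41, and Twistnb, another subunit, fell with -1.96 ± 0.23. Ubtf, which binds the ribosomal DNA promoter, had -0.02 ± 0.19, and the initiation factor Rrn3 had 0.23 ± 0.20. Neither passed.

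Of 37 other 40S factors 31 fell and 6 did not pass, with a median of -0.91, and Bccip (-2.18 ± 0.16), which is also known from 60S assembly, and the endonuclease-like Rcl1 (-2.02 ± 0.31) had the most negative values. Of 43 other 60S factors 35 fell and 8 did not pass, with a median of -0.90, led by Tma16 (-2.74 ± 0.34) and Wdr74 (-1.94 ± 0.19). Of 14 exosome subunits and cofactors, which trim precursor RNA, 9 fell and 5 did not pass, with a median of -0.75, led by Exosc5 (-2.09 ± 0.30) and Exosc4 (-1.80 ± 0.24). Of 9 genes listed as snoRNP assembly factors 5 fell and 1 rose. Zfp593 (-1.49 ± 0.26) fell, and it is counted in this list although its yeast relative acts in export of the 60S precursor. Nufip1 (-1.42 ± 0.19) also fell, and Tgs1, which modifies the cap of small RNAs, rose (1.08 ± 0.26).

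The MYC and MAX network, whose E-box binding factors are known regulators of many ribosome biogenesis genes, had 4 of 10 tested genes lower and 2 higher, against 25.0% and 29.7% of all tested genes, and 2 lower under total-count scaling. Myc was at 17.7, 20.3, 25.7 and 17.9 CPM in controls and 4.43, 8.41, 2.76 and 3.25 CPM in A485, a log2 fold change of -2.11 ± 0.34 (adjusted p 0.000547, edgeR). All A485 libraries lay below the controls, with replicate 2 the highest of them. Its partner Max fell with -0.83 ± 0.13. The MAX-binding repressors Mxd1 and Mxd4 rose, from 1.17 ± 0.287 to 20.2 ± 12.1 CPM with a log2 fold change of 4.10 ± 0.47, and from 1.95 ± 0.421 to 17.2 ± 2.80 CPM with 3.14 ± 0.23. Mycn had -0.46 ± 0.70 and did not pass.

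**Figure D5:**
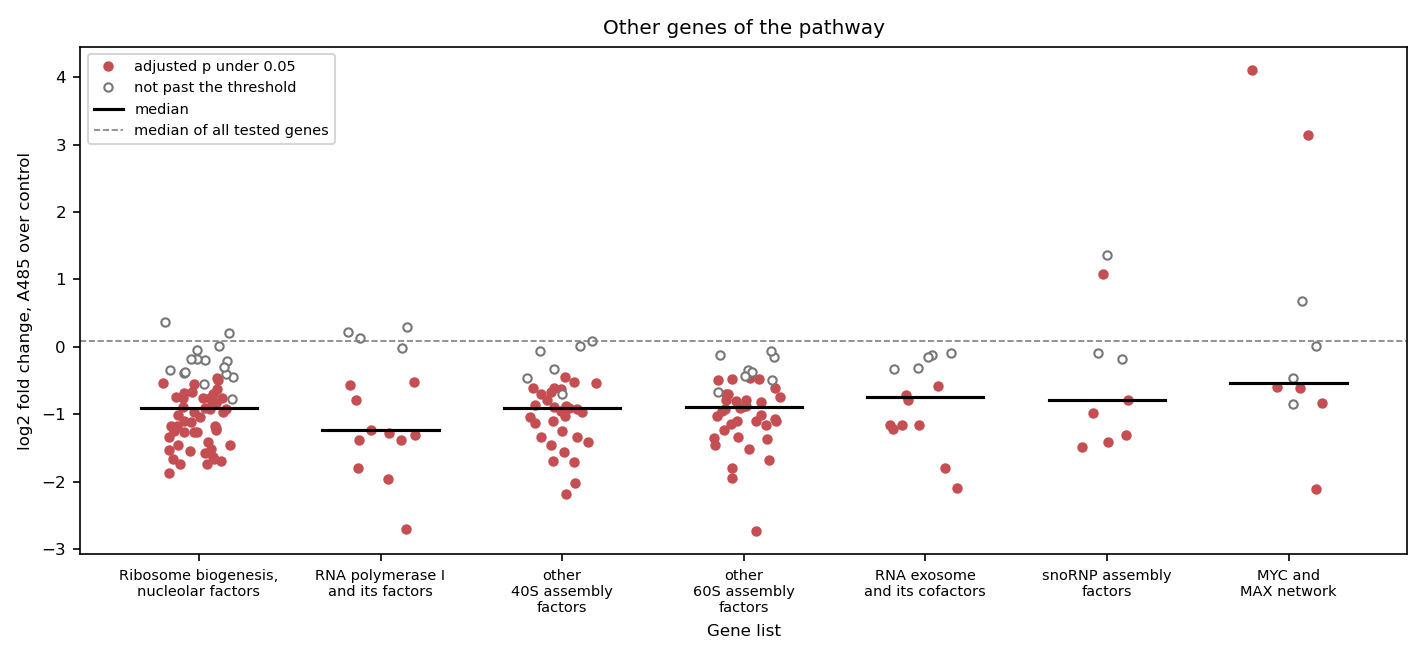
Log2 fold change, A485 over control, of the 65 genes and of every tested gene in 6 lists of other ribosome production genes, 1 point a gene, with the median of each list as a bar; red points passed the adjusted p of 0.05. The median is -1.24 for RNA polymerase I and its factors and -0.53 for the MYC and MAX network, where Mxd1 and Mxd4 are the highest points.

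Annotation columns in the authors' deposited table gave wider sets. Of the 53 other tested genes of its ribosome biogenesis pathway 35 fell and 6 rose, with a median of -0.69. Of the 756 other tested genes annotated to the nucleolus 37.7% fell and 22.0% rose, with a median of -0.26. Among all tested genes 25.0% fell and 29.7% rose, with a median of 0.085. Of the 65 genes, 75.4% fell. Across the 65 genes the fold change and the log2 control CPM had a Pearson r of -0.24 and a Spearman rho of -0.19, with all points from the same 8 libraries. Of the 65 genes 18 overlap another protein-coding gene on the map, among them Nhp2, Nop56, Dkc1, Bop1, Lyar and Wdr12, and since no source used here says whether counting used the strand, their reads cannot be told apart from those of the neighbour.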

How the data were processed

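Estimated counts, TPM, FPKM and normalized counts per gene came from 1 table deposited by the authors for all 8 libraries. Reads had been aligned with HISAT2 2.2.1 and quantified with RSEM 1.2.28 on GRCm38.p6, with DESeq2 1.40.2 for comparisons, per the submitters' processing notes. Of the authors' estimated counts 18.2% were not whole, and all were rounded. FPKM and the authors' normalized count signal were deposited but not used. The authors' deposited log2 fold changes and q-values were used only where named.

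Counts were scaled by TMM, filtered with filterByExpr and tested with edgeR 4.0.16 (robust quasi-likelihood F test, group as the only term, Benjamini-Hochberg adjustment over 12936 genes) in R 4.3.3. CPM values are TMM-scaled. Fold changes are log2 of A485 over control. Pairs used log2(TPM + 1) and an exact permutation test (scipy 1.17.1). Alternatives used DESeq2 1.42.0, limma 3.58.1 (voom), other scalings and filters, a replicate block and left-out libraries. The test was checked on simulated counts.

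The genes and lists were chosen with earlier results of these data known. The members given with all 8 values follow a rule: the 3 of smallest p in each role with at least 3 genes, the core snoRNP and PeBoW proteins, and both genes of each pair. Of each list, the 2 largest falls and rises past the threshold are named. Myc, also given with all 8 values, and Mycn were named whatever their values; other named genes were chosen after their values were seen. List genes were found for 145 of 153 symbols. One symbol was removed from the exosome list after its values were seen, because in mouse it names an unrelated membrane protein. Libraries of a group differed by more than sampling noise. Control and A485 libraries with the same number had correlated deviations of 0.00510 to 0.104, so the numbers were not taken as pairs. Gene positions and promoters came from RefSeq (GRCm38.p6), with 65 of 65 genes located. Depth was 23641781 to 25677701 estimated counts a library.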

Additional observations from a re-analysis of the deposited data

Results flagged for a closer look

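In 186 groups of 4 libraries, 1 per gene or pair ratio and group, a gap test for a single distant library (Dixon's, at 95%) picked out 8, and chance alone gives about 1 in 20. Nol6 stood at 14.3 CPM in A485 replicate 1, with the other 3 at 7.18 to 7.80. Bop1 stood at 69.98 CPM in the same library, with the others at 44.2 to 46.9. Nol11 stood at 210.1 CPM in control replicate 3 (others 179.6 to 182). Wdr12 stood at 1120.1 CPM in control replicate 2 (others 788 to 810.3), and its log2 TPM ratio to Bop1 stood at 1.47 there (others 0.84 to 0.89). The Gnl3 to Gnl3l ratio stood at 3.48 in control replicate 1 (others 3.11 to 3.16). Tgs1 stood at 11.7 CPM in A485 replicate 3, below the others at 27.24 to 28.02, and Mycn at 1.76 CPM in control replicate 2, below the others at 2.88 to 2.97.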

How the results depend on the processing

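Of the 49 genes that fell, 41 did so in every alternative run, and the count of genes that fell was 42 to 53. Among these settings the share of all tested genes that were lower is given only for the main one and total-count scaling. It was 52 by DESeq2 and by limma-voom, 46 to 52 without any 1 library, and 47 of 62 with a filter of 5 CPM in 4 libraries. The 8 that lost the call in at least 1 alternative were Ncl, Ddx21, Nol10, Nop16, Rrp1, Ddx47, Nolc1 and Imp3, and 7 of them, all but Imp3, lost it under total-count scaling. The count of genes that rose was 1 (Utp11) under upper-quartile factors, total-count scaling, the 5 CPM filter and without A485 replicates 1 and 2, and 0 to 1 without any 1 library. The median was -0.64 under total-count scaling, and -1.04 to -0.80 without any 1 library. Total-count scaling turned the sign of 5 genes that had not passed: Utp23 (0.0997), Utp15 (0.077), Nop14 (0.095), Gnl2 (0.24) and Gnl3 (0.094). Gnl2 was also positive under upper-quartile factors (0.049), the 5 CPM filter (0.079) and without A485 replicates 1 and 2 (0.027), and ran from -0.12 to 0.046 without any 1 library. Rrp36, near 0, was negative by DESeq2 (-0.010), limma-voom (-0.042), RLE factors (-0.010), no filter (-0.040), the replicate block (-0.042) and without A485 replicates 1 and 2 (-0.42), and ran from -0.21 to 0.16 without any 1 library. Mycn, not called, was 0.36 without A485 replicates 1 and 2, and -2.74 with a call without replicates 3 and 4. Total-count scaling brought the fold changes of Nol7 (-0.42), Ddx52 (-0.48), Nop10 (-0.48), Utp3 (-0.49), Nop56 (-0.39), Ddx27 (-0.49) and Max (-0.54) nearer to 0 by over 1.5 times. The cause of these shifts was not tested, and leaving out pairs of A485 libraries was chosen after seeing the data. Not every library correlated best with its own number, and with the replicate block 49 genes fell, 0 rose and the median was -0.93. Deviations of control replicates 1 and 2 correlated positively with those of A485 replicates 1 and 2 (0.00510 to 0.143). With those of A485 replicates 3 and 4 they correlated negatively. For control replicates 3 and 4 the signs were reversed, with 0.0645 to 0.104 against A485 replicates 3 and 4. Deviations were taken from the mean of each group and cancel within it, so the opposite signs follow on balance and add no separate observation. Whether these libraries share anything was not tested. Across the alternatives the genes that fell numbered 9 to 11 of the RNA polymerase I list, 25 to 33 of the other 40S factors, 27 to 38 of the other 60S factors, 7 to 11 of the exosome list, 5 of the snoRNP assembly list and 2 to 5 of the MYC and MAX network. No pair ratio passed in any alternative that was tested, and a single pair could not pass by itself there either. Only the ratio of Imp3 to Imp4 changed sign, at -0.12 without A485 replicate 1. The 2 groups of 4 pools limit the precision. Among the 65 the largest standard errors were those of Rrp12 (0.36), Nol3 (0.34) and Imp3 (0.32), at 18.9, 1.98 and 116 CPM in controls.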
